A study of Macaca mulatta and Mus musculus and Rattus norvegicus with 12 samples.

Results

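The genes described are 9 that mark B lymphocytes and their precursors: CD22, CD79A, CD79B, MS4A1, PAX5, EBF1, RAG1, VPREB1 and IGLL1. They were found by symbol in the tables of read counts, among 38599 symbols in mouse, 35259 in rat and 28641 in macaque. All 9 had a row in mouse and in rat. In macaque 3 had a row under their symbol, MS4A1, PAX5 and VPREB1, and CD22, CD79A, CD79B, EBF1, RAG1 and IGLL1 were absent by that rule. RNA came from bone enriched for osteocytes, the cells buried in the mineral, of the calvaria (the vault of the skull) and the tibia (a long bone of the hind limb). Female C57BL6 mice aged 4 months gave 2 calvaria pools (M4, M8) and 2 tibia pools (M5, M7), with 3 mice in each. Female Wistar rats aged 6 months gave one library per site, calvaria R1 and tibia R3, with 2 rats in each. Female rhesus macaques gave 3 libraries of calvaria (G1, G3, T1) and 3 of tibia (G2, G4, T2), one animal to a library, and the study states that skull and tibia were taken in pairs. The labels put their age at 4 to 6 months, while the study's methods give the same figures in years. The labels name no transgene and no treatment. Rodent tibias were opened and spun to empty the marrow, rodent calvaria was cut away from sutures and diploe, and macaque bone was sawn, with no marrow spin described.

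B cells arise in the bone marrow, where EBF1 and PAX5, both transcription factors, commit progenitors to the lineage. RAG1 is a subunit of the recombinase that rearranges the immunoglobulin genes, and VPREB1 and IGLL1 together form the surrogate light chain that pairs with a new heavy chain on pre-B cells. CD79A and CD79B are the signalling chains of the B cell receptor from the pre-B stage on. MS4A1 encodes CD20 and CD22 encodes an inhibitory sialic acid receptor, both surface proteins that are prominent on later B cells. EBF1 is also made by stromal and fat-lineage cells.

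Genes of bone cells and of marrow cells had reads in every library. The 8 genes listed for osteocytes and osteoblasts took between 1.08% and 2.49% of the reads of a mouse library, 0.957% to 1.16% in rat and 2.57% to 6.58% in macaque. Much of this was COL1A1, the type I collagen chain, which is not particular to osteocytes. Without it the other genes of the list took 0.0997% to 0.189% in mouse calvaria and 0.805% to 1.05% in tibia, 0.131% and 0.767% in rat, and 0.538% to 0.835% against 1.05% to 2.04% in macaque, lower in calvaria in each species. The 10 neutrophil genes took 5.98% to 11.7% in mouse and 4.35% to 8.08% in rat, and the 9 with a row took 0.781% to 5.37% in macaque. The 9 members took between 0.0284% and 0.0304% of the reads of a mouse library. Libraries held between 13934813 and 16826535 reads on named genes in mouse, 12233256 and 14255423 in rat, and 7951585 to 10342459 in macaque. Every library is a bulk sample, so fewer B-lineage cells and less RNA per cell cannot be told apart in any value below.

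In the mouse genome (GRCm38, GENCODE vM21 annotation) the members lie on 6 chromosomes. Cd22 (chr7:30865402-30880342) and Cd79a (chr7:24897381-24902197) share chromosome 7, and Cd79b (chr11:106311341-106314762) and Ebf1 (chr11:44617317-45008091) share chromosome 11. Ms4a1 is at chr19:11249675-11266241, Pax5 at chr4:44524757-44710487 and Rag1 at chr2:101638282-101649501. The 2 surrogate light chain genes are neighbours on the minus strand: Igll1 (chr16:16860671-16863985) ends 4417 bases before Vpreb1 (chr16:16868403-16870843) begins. A near copy, Vpreb2 (chr16:17980428-17981273), sits on the plus strand of the same chromosome. The coding sequences of Vpreb1 and Vpreb2 are shown because a read that fits both cannot be given to one. This bears on the mouse VPREB1 counts, and no rat or macaque sequence was searched. Bases 71 to 360 of each, counted from the A of the start codon, run 5′ to 3′ on the coding strand, and capitals mark the 4 bases of this stretch at which the copies differ.

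Vpreb1: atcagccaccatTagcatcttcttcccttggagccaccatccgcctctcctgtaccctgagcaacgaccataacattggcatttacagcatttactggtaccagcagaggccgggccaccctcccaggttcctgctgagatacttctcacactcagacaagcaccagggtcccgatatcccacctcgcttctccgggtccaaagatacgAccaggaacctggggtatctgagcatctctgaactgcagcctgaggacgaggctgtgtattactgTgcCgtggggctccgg

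Vpreb2: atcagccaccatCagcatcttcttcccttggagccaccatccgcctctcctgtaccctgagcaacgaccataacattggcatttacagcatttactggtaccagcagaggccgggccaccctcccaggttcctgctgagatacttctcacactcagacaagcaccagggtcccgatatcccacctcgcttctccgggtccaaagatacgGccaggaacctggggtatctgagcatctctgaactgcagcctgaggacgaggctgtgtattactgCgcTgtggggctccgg

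Over the whole coding sequence the copies differed at 9 of 429 coding bases (97.9% identity), and the longest stretch without a difference was 196 bases, longer than a read of 125 bases. Of the 125-base windows along the Vpreb1 transcript, 72, or 11.2%, also occurred in Vpreb2. Of the windows of Cd22, 215, or 5.58%, also occurred, in one orientation or the other, in Gm29439, another gene model of this annotation. The reads were counted without strand, and whether this model was among those counted was not checked. The other 7 mouse members shared no window with another gene of the annotation. The count table also holds a row like CD79A, described with that gene, that is not in the annotation searched under its name.

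In mouse 6 of the 9 members had sites that did not overlap, and they pointed both ways. The 3 genes of the pre-B stage, RAG1, VPREB1 and IGLL1, were higher in each calvaria library than in either tibia library once scaled to library size. CD22, MS4A1 and EBF1 were lower. A gene was called where edgeR's quasi-likelihood test gave a false discovery rate under 0.2 and the fold change passed 1.1, the study's own thresholds, and 1 member of 9, IGLL1, was called. Over all 22339 mouse symbols tested, 2.28% were called, 0.712% toward calvaria and 1.57% toward tibia. The sites did not overlap for 3 members toward calvaria and 3 toward tibia, against 17.3% and 18.4% of all symbols, or 35.7% in either direction. Leaving out calvaria M4 or M8 raised the called members from 1 to 6, in fits that called 7470 and 3816 of all symbols. The median log2 fold change of calvaria over tibia was -0.12 for the members and 0.05 for all symbols.

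**Figure D1:**
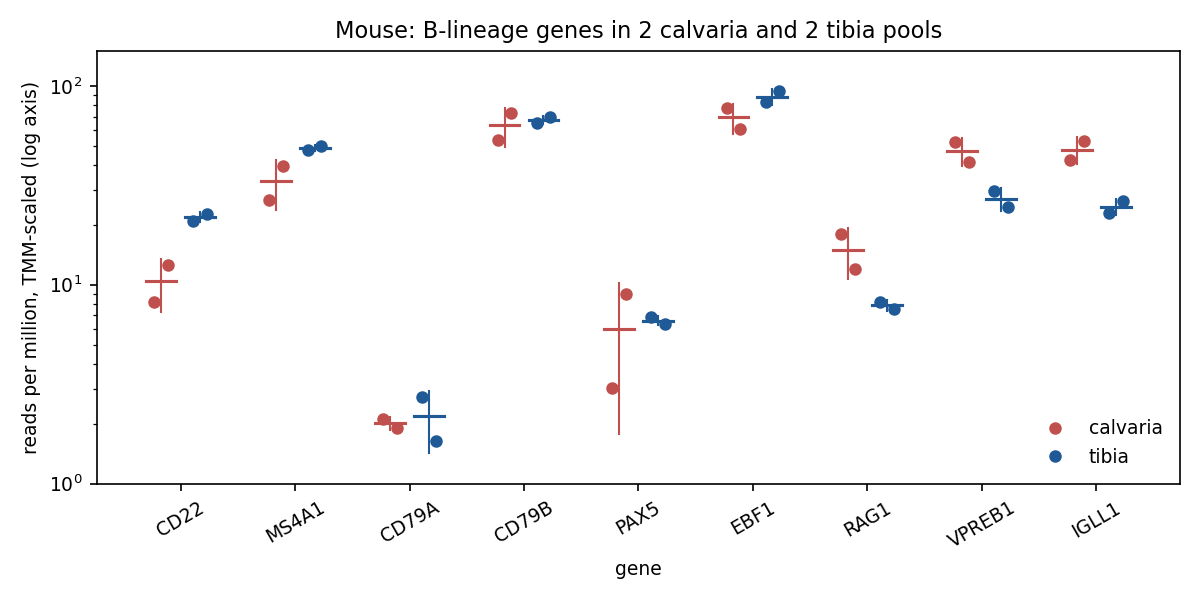
TMM-scaled CPM, reads for every 1000000 reads (log axis), of the 9 genes in the mouse libraries. Points are libraries (calvaria M4 and M8, tibia M5 and M7), horizontal bars are site means and vertical bars are 1 SD (n = 2). RAG1, VPREB1 and IGLL1 sit higher in calvaria, CD22, MS4A1 and EBF1 sit higher in tibia, and CD79A, CD79B and PAX5 overlap.

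IGLL1, the constant-like part of the surrogate light chain, had 663 and 693 reads in calvaria M4 and M8, and 406 and 383 in tibia M5 and M7. In CPM, reads for every 1000000 reads of a library scaled with TMM factors, that was 47.6 ± 7.34 CPM in calvaria and 24.6 ± 2.30 in tibia (SD, n = 2 each). IGLL1 rose 1.94-fold in calvaria (log2 0.95, SE 0.269, adjusted p = 0.166). The call was lost in the fit with library size alone (adjusted p = 0.261), with the exact test of edgeR (0.207), with a replicate block for assumed pairs (0.376), with only symbols read in every library (0.477), with filterByExpr (0.415), and when either tibia library was left out.

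VPREB1, the variable-like part, had 817 and 546 reads in calvaria M4 and M8 against 522 and 358 in tibia M5 and M7. The scaled levels were 52.3 and 41.6 CPM in calvaria and 29.5 and 24.5 in tibia. These differ 1.74-fold (log2 0.80, SE 0.271), with an adjusted p of 0.311 that did not pass. VPREB2, the near copy, had 103 and 69 reads in calvaria and 86 and 53 in tibia, a log2 fold change of 0.48 (SE 0.433, adjusted p = 0.874).

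RAG1 had 281 and 157 reads in M4 and M8 and 145 and 110 in M5 and M7. Its scaled level was 15.0 ± 4.25 CPM in calvaria and 7.86 ± 0.473 in tibia (SD, n = 2 each), a 1.91-fold difference (log2 0.93, SE 0.347, adjusted p = 0.402). The lower calvaria library, M8 at 12.0, stood nearer to the tibia libraries, at 8.19 and 7.52, than to M4 at 18.0.

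CD22 had the largest difference of the 9 in mouse over all 4 libraries, and toward tibia. Without M4 (log2 -0.82 against 1.08) or without M7 (-1.01 against 1.05) that of IGLL1 was larger. It had 128 and 165 reads in calvaria and 371 and 333 in tibia, or 8.19 and 12.6 against 21.0 and 22.8 CPM. The level in tibia was 2.11 times that in calvaria (log2 fold change -1.08, SE 0.323), and its adjusted p of 0.215 missed the threshold. With library size alone in place of TMM factors it passed (adjusted p = 0.189). MS4A1 was also lower in both calvaria libraries, with 26.5 and 39.6 CPM in calvaria and 47.5 and 49.7 in tibia, and its log2 fold change of -0.56 (SE 0.277, adjusted p = 0.668) did not pass.

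The receptor chains and PAX5 showed no separation of the sites. CD79B had 832 and 960 reads in calvaria and 1147 and 1013 in tibia, and its scaled level was 63.2 ± 14.1 against 67.1 ± 3.17 CPM (SD, n = 2 each). The log2 fold changes were -0.09 for CD79B (SE 0.266, adjusted p = 0.946), -0.12 for CD79A (SE 0.602, adjusted p = 0.972) and -0.14 for PAX5 (SE 0.488, adjusted p = 0.953). PAX5 was lowest in M4, with 3.01 CPM, and highest in M8, with 8.99, so that the calvaria libraries enclosed those of tibia at 6.84 and 6.36. The other commitment factor, EBF1, had 77.7 and 61.0 CPM in calvaria and 82.5 and 94.0 in tibia (log2 -0.35, SE 0.261, adjusted p = 0.860).

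CD79A reads were few for a chain that pairs with CD79B. They numbered 33 and 25 in calvaria and 48 and 24 in tibia. Per exonic base, CD79B had 26.5 to 46.8 times the reads of CD79A in a mouse library. A separate mouse row described as an alpha chain-like receptor protein held 11 to 24 reads per library. Reads mapping to both rows cannot be told apart here, and the level of CD79A is therefore uncertain.

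In macaque, 2 of the 3 members with a row were called, MS4A1 and VPREB1, both higher in calvaria. Among 18894 macaque symbols tested, 19.7% were called, 10.3% toward calvaria and 9.43% toward tibia. Calvaria lay above tibia without overlap for 2 of the 3 members and for 12.8% of all symbols, and the reverse held for none of the 3 and for 12.1%, which with the former makes 24.9%. MS4A1 had 157, 162 and 115 reads in calvaria G1, G3 and T1, and 106, 32 and 55 in tibia G2, G4 and T2. Each calvaria library was above each tibia library, with 17.7 ± 3.36 against 6.86 ± 4.18 CPM (SD, n = 3 each). The rise was 2.58-fold (log2 1.37, SE 0.340, adjusted p = 0.00495).

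VPREB1 rose as well. It had 60, 22 and 125 reads in calvaria G1, G3 and T1 and 3, 1 and 11 in tibia G2, G4 and T2, or 7.23, 2.76 and 15.1 against 0.328, 0.114 and 1.07 CPM. The sites did not overlap, although calvaria G3 was nearer to tibia T2 than the other calvaria libraries were. The fitted rise was 15.7-fold (log2 3.98, SE 0.614, adjusted p = 8.39e-06), and it rests on 15 reads in tibia. Leaving out single libraries moved the log2 fold change between 3.24 and 5.15.

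**Figure D2:**
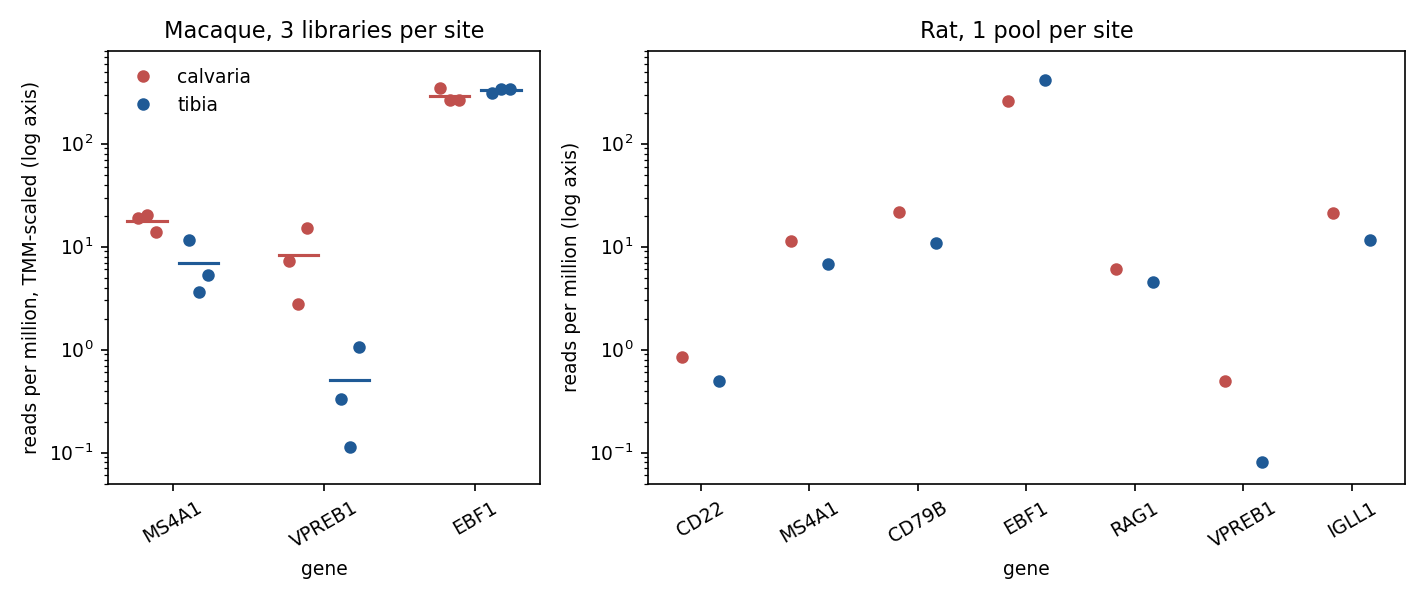
CPM (log axes) of members in macaque (left, TMM-scaled, 3 libraries per site, horizontal bars are means) and rat (right, 1 library per site). In macaque, MS4A1 and VPREB1 do not overlap between the sites, and EBF1, read from a row named through RefSeq, does. In rat, EBF1 is the member with the higher level in tibia.

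PAX5 gave too few macaque reads for a statement about sites. Calvaria G3 had 6 reads, tibia T2 had 2, calvaria T1 had 1, and G1, G2 and G4 had none, which allows up to 3 reads in each of those libraries. The macaque row of PAX5 covered 885 exonic bases, against 8034 in mouse.

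Names from RefSeq (from a newer macaque assembly, T2T-MMU8v2.0, used only for names) give macaque rows for 2 of the absent members. The row of EBF1, labelled as COE1-like, had 2853, 2105 and 2193 reads in calvaria G1, G3 and T1 and 2852, 3009 and 3531 in tibia G2, G4 and T2. Its log2 fold change was -0.19 (SE 0.180, adjusted p = 0.580), and G1 stood above every tibia library, with 344 CPM. The row of CD79B had 0 reads in all 6 libraries, which allows up to between 0.290 and 0.377 CPM. In mouse CD79B had 44.4 to 61.1 CPM per kilobase of exon, and what the empty macaque row says of the gene was not tested. There were 2 macaque rows described as IGLL1-like, neither a member, and they were chosen after their values were seen. One, with no entry in the RefSeq names used here, had 1520, 1958 and 782 reads in calvaria and 469, 419 and 301 in tibia (log2 2.03, SE 0.241, adjusted p = 5.51e-08). The other had 1, 0 and 10 reads in calvaria and 0, 0 and 8 in tibia, with overlapping sites (log2 0.71, SE 1.55, adjusted p = 0.828).

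In rat, with one library per site, there was no test, and differences have no replicate check. The log2 ratio of calvaria over tibia, with 1 read added to each count, was above 0 for 6 of the 7 members with reads. Over all 19234 rat symbols with reads, 34.2% were above 0, 9.69% were past 2 in size, and the median was -0.29. No member passed 2, although VPREB1 did with 0.5 reads added (2.10) or with TMM factors (2.07). Intervals below are exact 95% binomial limits of the ratio, scaled by library size alone, and cover counting error only.

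CD79B had 312 reads in calvaria R1 and 133 in tibia R3, a ratio of 2.01 (1.64 to 2.49) per read sequenced. IGLL1 followed with 304 and 141 reads, a ratio of 1.85 (1.51 to 2.28), and MS4A1 with 163 and 83 reads, a ratio of 1.69 (1.29 to 2.22). All these intervals lay above 1. For RAG1, with 86 and 56 reads, the ratio was 1.32 (0.930 to 1.88), and for CD22, with 12 and 6 reads, 1.72 (0.596 to 5.57). VPREB1 had 7 reads in calvaria and 1 in tibia, a ratio of 6.01 with limits of 0.772 and 271. These 3 intervals included 1, so on this scale no difference was detectable in them. With TMM factors the log2 ratio of RAG1 moved from 0.39 to 0.68, and no interval was computed on that scale.

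EBF1 went the other way in rat, with 3725 reads in calvaria and 5098 in tibia, and tibia was 1.59 times as high (1.53 to 1.66). With TMM factors its log2 ratio of calvaria over tibia moved from -0.67 to -0.39. The rows of CD79A and PAX5 held 0 reads in both rat libraries, which allows up to 0.210 CPM in calvaria and 0.245 in tibia. These limits hold for reads counted on the rows, which covered 601 exonic bases for CD79A and 1145 for PAX5. What the empty rat rows say of the genes was not tested. A rat row described as alpha chain-like, outside the members, held 363 and 207 reads, a ratio of 1.5 (1.27 to 1.79), close in level to CD79B. Another, described as immunoglobulin lambda-like polypeptide 5-like and chosen after its values were seen, held 21085 and 2526 reads, a ratio of 7.16 (6.87 to 7.47).

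**Figure D3:**
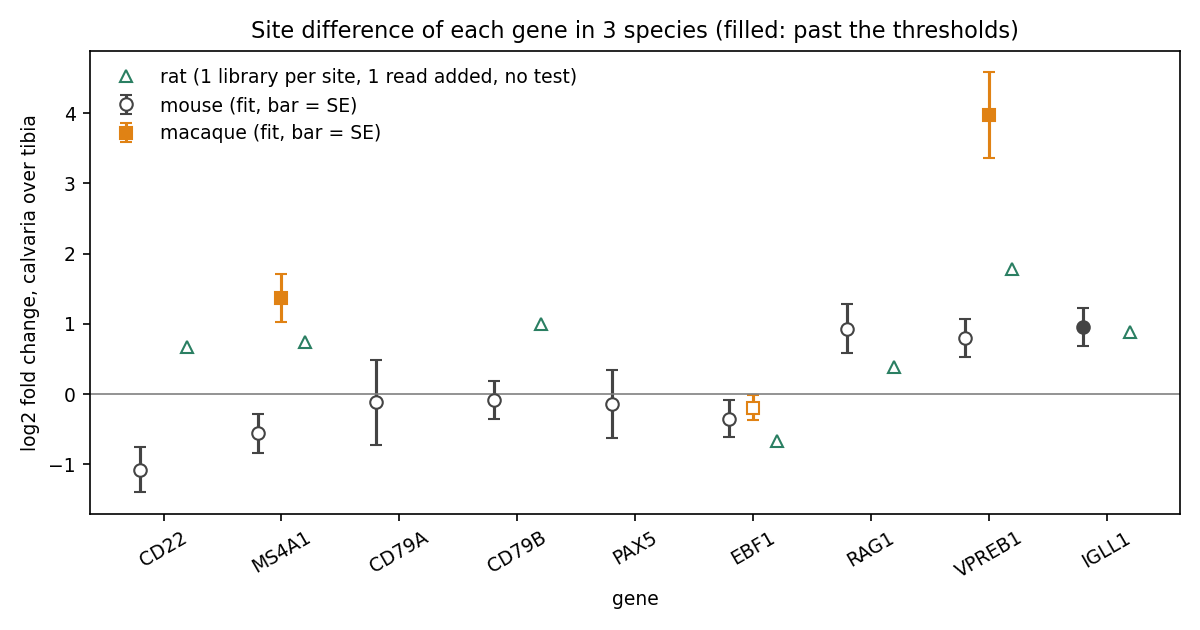
Log2 fold change of calvaria over tibia for each member, for mouse and macaque from the fit with its standard error and for rat as a ratio with 1 read added and no error. Filled symbols passed the thresholds. MS4A1 is below 0 in mouse and above 0 in macaque and rat, and VPREB1 is above 0 in all 3 species; macaque PAX5 is left out for its few reads.

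The site effects of MS4A1 and VPREB1 differed between mouse and macaque. The interaction term was tested over 11565 symbols, of which 4.89% were called. For MS4A1 the log2 fold change was -0.56 in mouse and 1.37 in macaque, a difference of 1.94 (SE 0.562, adjusted p = 0.157). For VPREB1 it was 0.80 in mouse and 3.98 in macaque, a difference of 3.20 (SE 0.915, adjusted p = 0.156). EBF1, at -0.35 and -0.19, differed by 0.17 (SE 0.268, adjusted p = 0.805). The rodent libraries were run on lane 3 and those of macaque on lane 4, so species, lane, genome and annotation cannot be told apart in these terms.

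The balance of early to late B-cell genes within a library needs no scaling between libraries. In mouse, RAG1, VPREB1 and IGLL1 together had 3.25 and 2.04 reads for each read of CD22 and MS4A1 in calvaria M4 and M8, and 0.886 and 0.804 in tibia M5 and M7. Both calvaria pools were above both tibia pools. That order was fixed by the scaled levels given above, where each early gene was higher in calvaria and each late gene lower. It is therefore not a separate result. In rat the same ratio was 2.27 in calvaria and 2.22 in tibia. In macaque, where one gene of each kind had a row, VPREB1 had 0.382, 0.136 and 1.09 reads per MS4A1 read in calvaria G1, G3 and T1, and 0.0283, 0.0313 and 0.20 in tibia G2, G4 and T2. Calvaria G3 lay below tibia T2, so these groups overlapped. Within each of the 3 assumed pairs, G1 with G2, G3 with G4 and T1 with T2, calvaria had the higher ratio. The ratio is given as a description, with no test.

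In macaque, markers of other blood cells also differed between the sites. Of all macaque symbols 10.3% were called toward calvaria and 9.43% toward tibia. Of 8 genes common to white blood cells, such as PTPRC (the CD45 phosphatase) and CD52, 6 were called toward calvaria and none toward tibia. Their summed level was 896 to 1395 CPM in calvaria and 297 to 469 in tibia, without overlap. In mouse none of the 8 was called, and the sums were 1960 to 4444 in calvaria and 2230 to 2428 in tibia, so the tibia libraries lay within the range of calvaria. In rat the sums were 2152 in calvaria and 1588 in tibia. Their part in the results of the members was not tested.

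Counted against the reads of these 8 genes in the same library, a scale chosen after the data were seen, the members of macaque parted. MS4A1 had 21.1, 19.6 and 9.99 reads per 1000 white-cell reads in calvaria G1, G3 and T1 and 34.2, 12.3 and 11.4 in tibia G2, G4 and T2. The sites overlapped, and the log2 ratio of means turned from above to below 0, at -0.19. CD52 gave the most of these white-cell reads in every macaque library, and its log2 fold change was 2.03. Among the others, RAC2 (1.51) was above MS4A1 (1.37), while PTPN6 (1.29), PTPRC (1.09), ARHGDIB (0.94) and CD53 (0.93) were below. LAPTM5 (0.39) and CORO1A (0.53) were also below, with at most 4 reads in a library. MS4A1 against the 8 genes without CD52 was not tested. VPREB1 had 8.07, 2.66 and 10.9 in calvaria against 0.967, 0.385 and 2.28 in tibia. These did not overlap, with a log2 ratio of means of 2.57.

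In mouse the same scale kept CD22 and MS4A1 lower in both calvaria libraries. CD22 had 4.18 and 2.83 reads per 1000 white-cell reads in calvaria and 9.40 and 9.38 in tibia, and MS4A1 had 13.5 and 8.90 against 21.3 and 20.5. IGLL1 stayed without overlap, at 21.6 and 11.9 in calvaria and 10.3 and 10.8 in tibia. VPREB1 had 26.7 and 9.36 in calvaria against 13.2 and 10.1 in tibia, and RAG1 had 9.17 and 2.69 against 3.67 and 3.10. In both of these genes M4 was above the tibia libraries and M8 below them.

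**Figure D4:**
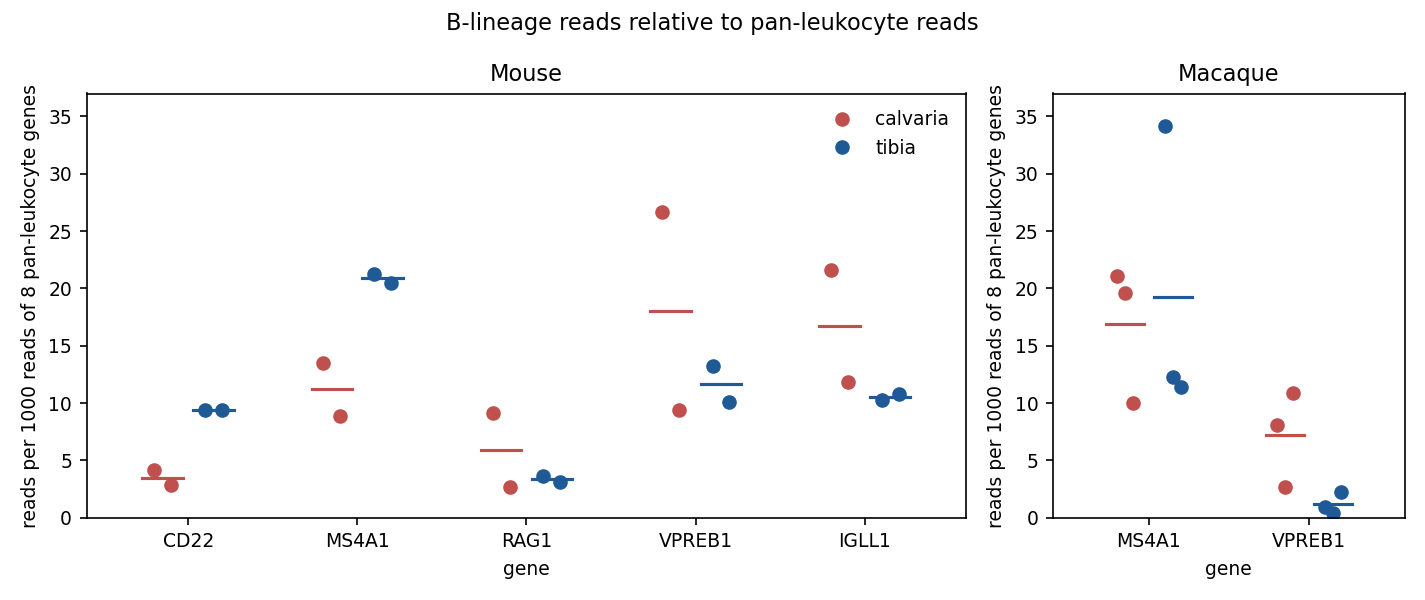
Reads of members per 1000 reads of 8 pan-leukocyte genes in the same library, for mouse and macaque. Points are libraries and bars are means. In macaque MS4A1 overlaps between the sites and VPREB1 does not; in mouse CD22 and MS4A1 are lower in calvaria and VPREB1 and RAG1 have 1 calvaria library on each side of tibia.

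Other genes of the B lineage were taken from 4 lists with 47 genes in all. In mouse 46 had reads, 2 were called toward calvaria and 3 toward tibia, and the median log2 fold change was 0.11. The called genes made up 10.9%, against 2.28% of all mouse symbols, 0.712% toward calvaria and 1.57% toward tibia. VPREB3, which like VPREB1 belongs to the pre-B stage, rose in calvaria (663 and 650 reads against 447 and 355 in tibia, log2 0.89, SE 0.264, adjusted p = 0.1997). So did CD72, a co-receptor (log2 1.26, SE 0.35, adjusted p = 0.154). The 3 that fell in calvaria were CR2, the complement receptor (log2 -1.52, SE 0.394, adjusted p = 0.113), BANK1, a signalling scaffold (log2 -1.10, SE 0.296, adjusted p = 0.134), and CXCR5, the follicle-homing chemokine receptor (log2 -1.57, SE 0.462, adjusted p = 0.195). RAG2, the partner of RAG1, had 19 and 14 reads in calvaria and 18 and 8 in tibia. DNTT, which adds bases at the joins, had 181 and 200 against 230 and 173, with overlapping sites.

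In macaque 40 of the 47 had reads, 18 were called toward calvaria and 4 toward tibia, and the median was 0.77. The called genes made up 55%, against 19.7% of all macaque symbols, 10.3% toward calvaria and 9.43% toward tibia. By list, 10 of 15 receptor and signalling genes were called toward calvaria, among them SYK (log2 2.01, SE 0.215) and BTK (log2 2.01, SE 0.423). SYK, BTK, PTPN6 and LYN are also made by myeloid cells. The early list divided, and which cells made its transcripts was not tested. DNTT (log2 1.68, SE 0.344, adjusted p = 0.000602) and FLT3 (log2 0.74, SE 0.295, adjusted p = 0.111) rose in calvaria. CD34 (log2 -0.46, SE 0.198, adjusted p = 0.157) and LEF1 (log2 -0.57, SE 0.232, adjusted p = 0.122) fell. Of the transcription list 3 genes rose, including IKZF1 (log2 1.56, SE 0.191), and 2 fell, FOXO1 (log2 -0.64, SE 0.186) and BCL6 (log2 -0.72, SE 0.180). One of the 3, TCF3, rests on 11 reads in calvaria T1, with 0 in the other libraries. Of the mature surface list 3 rose, including FCRLA (log2 2.10, SE 0.339), and none fell, while TNFRSF13C, CXCR5 and CCR7 had 0 reads in every library. Of the 3 that rose, FCRL1 rests on 2 reads in calvaria G1 and 10 in G3, with 0 in the other libraries. In these lists 6 genes had no reads at one site. Of them CD72, BLK, PIK3CD and SPI1, with at most 3 reads in all, were left out of a second median. TCF3 and FCRL1 were set to 3 reads at the empty site. The receptor list's median then moved from 1.25 to 1.18, the transcription list's from 0.45 to 0.34, and the surface list's stayed at 0.56.

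In rat 43 of the 47 had reads, 26 were above 0, and the median log2 ratio was 0.22. Over all rat symbols 34.2% were above 0, and the median was -0.29. Genes past 2 in size made up 4.65% of those with reads, against 9.69% of all rat symbols. The 2 past 2 were RAG2, with 56 reads in calvaria and 10 in tibia (ratio 4.81, 2.43 to 10.6), and FCER2, the low-affinity IgE receptor, with 11 and 1.

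**Figure D5:**
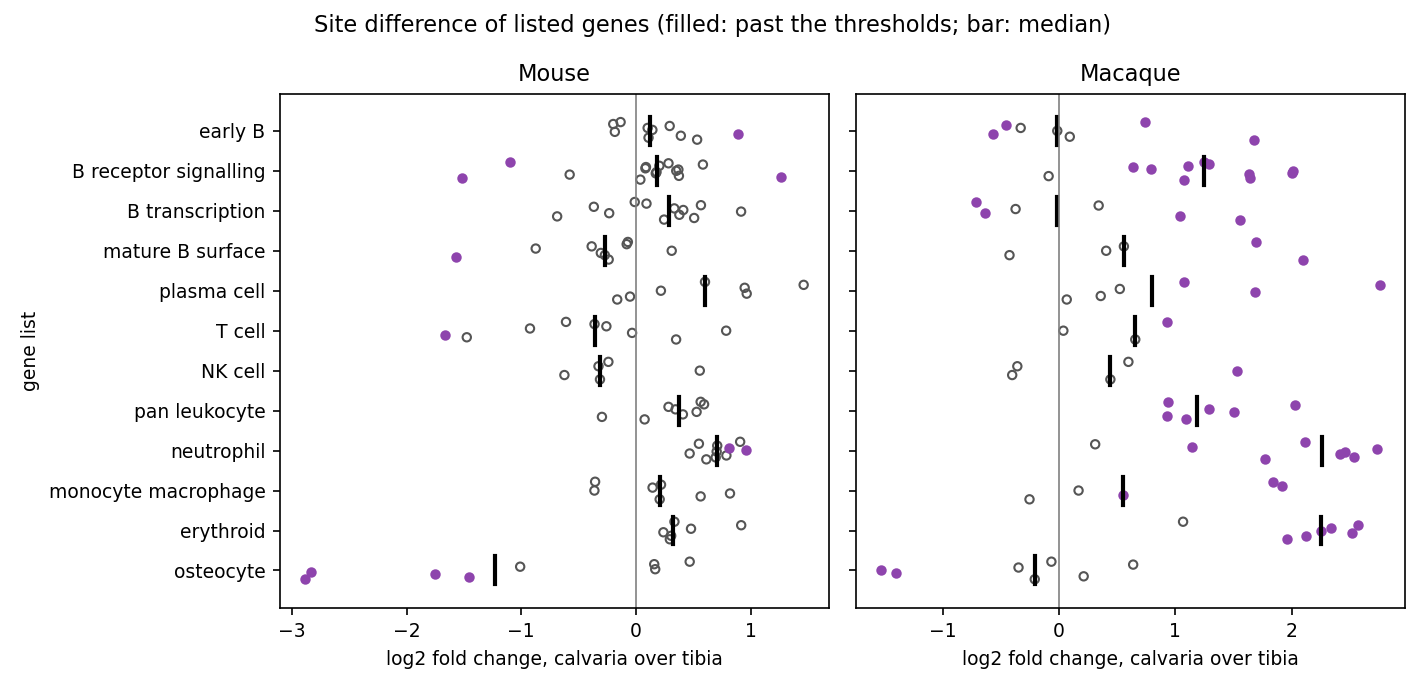
Log2 fold change of calvaria over tibia of the genes in 12 marker lists, in mouse and macaque, for genes with a mean above 1 CPM at either site. Filled points passed the thresholds, and bars are list medians over the genes drawn. In macaque most neutrophil and erythroid genes are filled and above 0, and in mouse the lowest 3 points are the osteocyte genes DMP1, SOST and MEPE.

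The remaining lists describe the company in which the members were measured. In macaque 7 of 9 neutrophil genes (median log2 2.11) and 6 of 7 erythroid genes (median 2.25) were called toward calvaria. So were 4 of 6 monocyte and macrophage genes, 3 of 6 plasma cell genes, 1 of 5 T cell genes and 1 of 5 NK cell genes, and none of these lists had a gene called toward tibia. MEPE and SOST, osteocyte products, were the 2 of 8 osteocyte genes called, both toward tibia. Over all macaque symbols 10.3% were called toward calvaria and 9.43% toward tibia. In mouse 2 of 10 neutrophil genes, S100A8 and S100A9, were called toward calvaria and 4 of 8 osteocyte genes toward tibia. Over all mouse symbols these shares were 0.712% and 1.57%. The T cell list had 1 call, CD3G, toward tibia. No gene of the plasma cell, NK cell, monocyte and macrophage, or erythroid lists was called in mouse. Of the T cell genes with a macaque row, CD3E, CD247 and CD5 had 0 reads in all 6 libraries. The part of these cells in the members' results was not tested.

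Genes that feed B-cell precursors in the marrow were listed as well. CXCL12, the chemokine that holds precursors in the marrow, fell in mouse calvaria (856 against 1786 CPM, log2 -1.06, SE 0.249, adjusted p = 0.0717), as did KITLG, stem cell factor (log2 -1.16, SE 0.280, adjusted p = 0.0823). IL7, the growth factor of mouse pro-B and pre-B cells, had 31 and 21 reads in calvaria and 67 and 54 in tibia (log2 -1.06, SE 0.535, adjusted p = 0.678). TNFSF13B, the B-cell survival factor BAFF, went the other way in mouse, with 13.9 CPM in calvaria and 7.73 in tibia. Its log2 fold change of 0.85 did not pass (SE 0.369, adjusted p = 0.552). In macaque KITLG fell in calvaria (log2 -0.61, SE 0.241, adjusted p = 0.107) and TNFSF13B rose (log2 0.88, SE 0.389, adjusted p = 0.165). CXCL12, at 10.3 CPM in macaque calvaria and 7.48 in tibia, did not pass (log2 0.46, SE 0.349, adjusted p = 0.484). In rat none of the 6 listed genes passed 2 in size, against 9.69% of all rat symbols. Of the 6, 2 were above 0 and 4 below. CXCL12 had 14352 reads in rat calvaria and 23549 in tibia (log2 ratio -0.94), and KITLG had 508 and 861 (-0.98). TNFSF13B, with 8 and 17 reads, was also below 0 in rat (-1.22), unlike in mouse and macaque.

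Levels per exonic length ordered the members differently in each species. In mouse the scaled CPM per kilobase, over all 4 libraries, were 54.4 for CD79B, 48.1 for VPREB1 and 41.5 for IGLL1, with overlapping ranges. The order of these 3 turned on the site. In calvaria M4 and M8, VPREB1 had 68.1 and 54.2, IGLL1 48.8 and 60.7 and CD79B 44.4 and 61.1, all overlapping. In tibia M5 and M7, CD79B had 54.1 and 57.8, above VPREB1 at 38.4 and 31.9 and IGLL1 at 26.4 and 30.1. After a gap came MS4A1 at 19.8 and EBF1 at 16.3, which also overlapped, and then CD22 at 3.36, RAG1 at 1.69, CD79A at 1.58 and PAX5 at 0.784. CD22 overlapped RAG1 and RAG1 overlapped CD79A, while PAX5 stood apart below CD79A. In rat EBF1 led with 35.1, before IGLL1 at 20.7, CD79B at 13.5, MS4A1 at 5.54, RAG1 at 0.812, VPREB1 at 0.362 and CD22 at 0.124. In macaque VPREB1 and MS4A1 overlapped at each site, with 5.61 to 30.8 for VPREB1 and 5.32 to 7.76 for MS4A1 in calvaria, and 0.232 to 2.17 against 1.39 to 4.43 in tibia. MS4A1 was the higher of the pair in calvaria G3 and in tibia G2 and G4. PAX5 had a mean of 0.201 over the 6 libraries. These levels depend on how complete each gene model is, and they are not compared between species.

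The genes whose pattern across libraries was most like the mean of MS4A1, PAX5 and VPREB1 were, in order, HNRNPAB, PIK3CG, SLC25A37, MCM4, DUT, TSN, KIF23 and SKA3. Likeness was the smaller of 2 Pearson correlations of log2(CPM + 1), over the 4 mouse and the 6 macaque libraries, and 6053 symbols were compared. It ran from 0.985 for HNRNPAB to 0.967 for SKA3. With so few libraries and so many symbols, high values are given as a description only. In mouse MS4A1 (log2 -0.56) and VPREB1 (log2 0.80) went opposite ways, so their site differences partly cancelled in the mean. PAX5 had at most 6 reads in a macaque library. Likeness to this mean is therefore not likeness to each member, and small mouse fold changes follow from the choice of mean. The log2 fold changes of these genes in macaque lay between 0.72 for HNRNPAB and 3.70 for SKA3, and the largest in mouse was 0.25 for SLC25A37.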

How the data were processed

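Poly(A)+ RNA was sequenced as single reads of 125 bases from 12 libraries. Per the paper, the authors mapped reads with HISAT2 to mm10, rn6 or MacaM and counted them with HTSeq-count on merged exons without strand, while the submitters' processing notes name BWA 0.7.10-r789. As deposited, each table gives raw counts per gene beside a normalized signal of the authors, which was not used. Rows without a gene name (0.00261% to 0.0663% of reads) were left out, and rows of one symbol were summed.

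Mouse and macaque counts were fitted separately over all symbols with at least 1 read, in R 4.3.3 with edgeR 4.0.16 (TMM factors of 0.942 to 1.05 in mouse and 0.884 to 1.12 in macaque, quasi-likelihood test, Benjamini-Hochberg adjustment), and together for the species by site interaction. The standard error is the log2 fold change over the square root of F. Marker lists in macaque used 5939 LOC rows named through RefSeq. A named list gene was one of the 4 with the smallest p in macaque, or one that a sentence turned on; some of these are not reported here by name, though counts and medians of their lists include them. Rat ratios had no test. DESeq2 1.42.0 was an alternative. The fits were tested on simulated data. Python 3.11.15, pandas 2.3.3 and scipy 1.17.1 did the rest.

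The members, the 13 lists and the tests were chosen with earlier results of these data known. The study states that skull and tibia were paired and names no pairs. After site means were removed, deviations correlated with r of 0.203 to 0.446 in the 3 assumed macaque pairs, against -0.351 to 0.0898 for other combinations. In mouse the check is uninformative. Mouse pools and single macaques differ in kind, so p-values measure the spread between pools in one and between animals in the other.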

Additional observations from a re-analysis of the deposited data

Results flagged for a closer look

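MS4A1 and VPREB1 had site effects that differed between mouse and macaque by the test of the interaction. The difference of the log2 fold changes, macaque minus mouse, was 1.94 for MS4A1 (adjusted p = 0.157), with both mouse calvaria libraries below both tibia libraries and all 3 macaque calvaria libraries above all 3 tibia libraries. For VPREB1 it was 3.20 (adjusted p = 0.156), with calvaria above tibia in every library of both species. Species, lane and genome cannot be told apart in either value.

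CD22 and MS4A1 were lower in both mouse calvaria libraries than in both tibia libraries, while the single rat pair went the other way, with log2 ratios of 0.67 for CD22, from 12 and 6 reads, and 0.74 for MS4A1, from 163 and 83 reads. The difference between mouse and rat was not tested.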

How the results depend on the processing

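The mouse count of 1 called member became 0 at a false discovery rate under 0.05, with the exact test, with symbols that had a read in every library, with filterByExpr, and with a replicate block for either set of assumed pairs. It was also 0 with symbols shared by the 3 species, where IGLL1, which has no macaque row, was not among the symbols tested. With library size alone IGLL1 was lost and CD22 gained, so the count stayed at 1. It ran from 0 to 6 when single libraries were left out: 6 without M4 and 6 without M8, and 0 without M5 and 0 without M7. A lone calvaria library is then assumed to vary as the tibia libraries do. In those fits the log2 fold change ran from -0.34 to 0.10 for CD79B and from -1.14 to 0.42 for PAX5, both above 0 without M4, and from -0.43 to 0.29 for CD79A, above 0 without M5. All mouse symbols called, 510 in the fit reported, were 208 at the stricter rate, 14 with reads in every library, 29 with filterByExpr, 20 with shared symbols, 295 with the replicate block, and 220 to 7470 without single libraries.

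The macaque count stayed at 2 in every alternative, the replicate block included, and the largest adjusted p of MS4A1 was 0.158, without G3. PAX5 ran from -0.14 without G3 to 4.38 without T2. Per 1000 white-cell reads, of which CD52 gave the most in every macaque library, MS4A1 reversed to -0.19. All macaque symbols called, 3724, were 1978 at the stricter rate, 2136 with shared symbols and 2301 to 4998 without single libraries. Library size alone moved the median of the 13094 macaque symbols with a read in every library by -0.20, and the calls toward calvaria from 1943 of 3724 to 1381 of 4499.

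In rat the count past 2 went from 0 to 1, VPREB1, with 0.5 reads added (2.10) and with TMM factors (2.07), which raised all ratios by 0.29. All rat symbols past 2, 1864, were 690 with 5 reads added. The interaction called MS4A1 and VPREB1 in each of its 3 alternatives, with 1009 symbols called under the replicate block against 566. The alternatives were other scaling factors, library size alone and the replicate block. A stricter rate and left-out libraries were not among them. In the main quasi-likelihood fit the adjusted p values, 0.157 for MS4A1 and 0.156 for VPREB1, were above 0.05. Depth limits macaque PAX5, rat VPREB1 and rat CD22, each with at most 12 reads in a library.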
